A study of Arabidopsis thaliana with 10 samples.

Results

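The samples taken 6 h and 8 h after release of an Arabidopsis thaliana cell culture from a block of DNA replication were compared with those taken at 2 h and 4 h. These were 4 of the 10 samples of a course that ran from 0 h to 19 h, with 1 array at each time and no replicate. Each was an Affymetrix ATH1 array, on which a probe set reports the transcript of 1 gene or of a few near-identical genes. All 4 samples were MM2d cells, a fast-dividing suspension line, held in continuous darkness at 27 °C in a medium with sucrose, an auxin (NAA) and a cytokinin (kinetin). Early stationary cells had been diluted into fresh medium with 4.16 ug/ml aphidicolin for 24 h, then washed and resuspended without the drug. All 4 samples thus shared the block and the wash, and time was the only difference their labels gave. With 1 array at each time, an effect of time and one of the RNA preparation or array cannot be told apart. The 2 h and 4 h samples are called the earlier times and the 6 h and 8 h samples the later times. The labels gave times and no cell cycle phase, and DNA content was not analysed here, so the passage from S phase to G2 was followed through marker genes alone.

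Aphidicolin inhibits the replicative DNA polymerases and holds cells near the start of S phase, so that a washed culture resumes replication together. In plants, histone transcripts accumulate during S phase, when new DNA is packed into chromatin. Transcripts for mitosis, such as those of Aurora kinases, spindle checkpoint proteins and phragmoplast kinesins, accumulate from G2 onwards under MYB3R transcription factors. Cyclin-dependent kinases drive these steps, and inhibitors of the KRP and SIAMESE families restrain them. A change in a culture's RNA can come from fewer cells of a kind or from less RNA per cell, and these cannot be told apart in bulk samples.

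A probe set was counted as separated when both later values lay above, or both below, both earlier values, and its gap was the distance between the nearest pair. Signals are MAS5 values on a linear scale, and differences are on the log2 scale after signals under 12 were set to 12. Where a pair of signals is given for a window, the values are in the order of the times. Of 22746 probe sets, 4423 (19.4%) were separated higher at the later times and 2577 (11.3%) separated lower. The median gap was 0.16 log2 units on either side. A gap of at least 1, which puts each later value at least 2-fold from each earlier one, was found for 62 probe sets higher (0.273%) and 86 lower (0.378%). Just inside this limit on the higher side stood UNG, with a gap of 1.03, and just outside it ATLP-1, with 0.980. On the lower side AT5G13200 stood just inside at 1.01 and AT1G22410 just outside at 0.997. In 29 of the 62 at least 1 earlier value was under 12, and in 27 of the 86 at least 1 later value was.

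The difference between the windows was tested with limma in a fit of all 10 arrays, over the 13647 probe sets with enough mean signal. An adjusted p under 0.05 was reached by 34 probe sets that rose (0.249%) and 45 that fell (0.33%), against 2275 (16.7%) at an unadjusted p under 0.05. The times of a window are not replicates, and with 1 culture sampled a p-value covers no more than the scatter among its samples. Of the 34, 17 named 1 gene and 17 had no gene listed, and of the 45, 15 named 1 gene and 28 had none listed. Among the tested probe sets, 3522 (25.8%) were separated higher and 2149 (15.7%) lower, which are the shares against which the gene groups are read. This split depended on the scaling of the arrays: with each array centred on its median, 2019 were higher and 3312 lower, and 17 rose and 56 fell by limma. The median difference over tested probe sets moved with it, from 0.086 as deposited to -0.054.

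**Figure D1:**
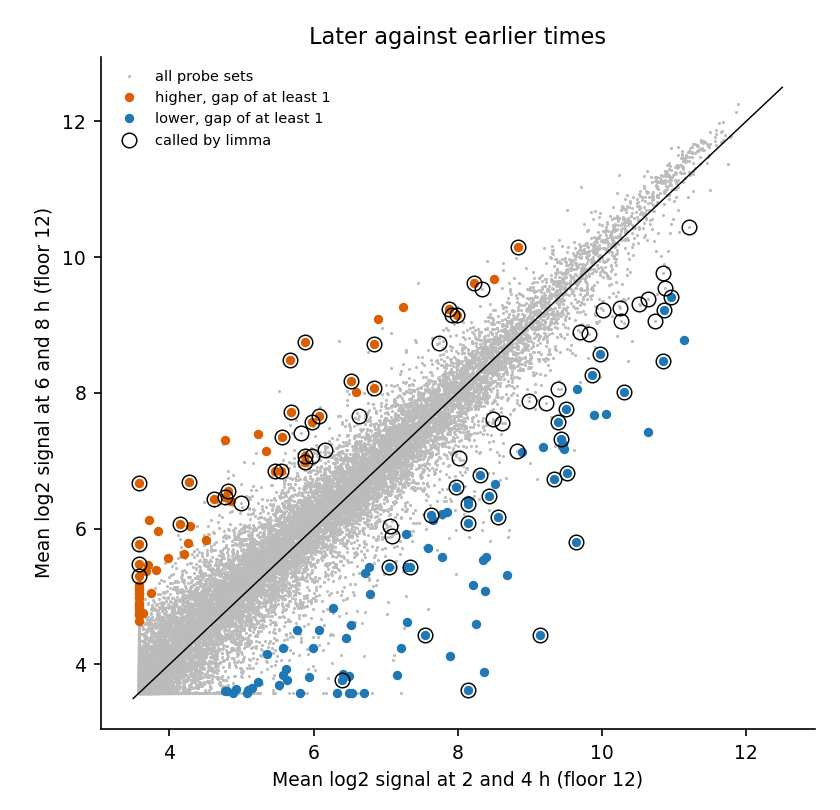
Mean log2 signal at 6 and 8 h (vertical axis) against that at 2 and 4 h (horizontal axis) for all 22746 probe sets in grey, with values under 12 set to 12. The 62 probe sets with a gap of at least 1 on the higher side are orange, the 86 on the lower side blue, and the 79 called by limma are circled; most points lie along the diagonal, and the lower group reaches the larger distances from it.

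The 2 h array stood apart from the rest. Its mean correlation with the other arrays was 0.931, against 0.955 to 0.969 for the other 9, and its median signal of 35.0 was the lowest of a range that reached 43.6. Of the 77 tested probe sets lower by a gap of at least 1, 62 (80.5%) had their highest signal of the whole course at 2 h, against 47.9% of all tested probe sets separated lower. A high value at 2 h or 4 h is in part fixed by how these were chosen, so the shares are a description. The 2 h value lay above the 4 h value in 72 of these 77, by a median of 0.64 over the 77. In most of the lower group, then, the 4 h value was already below the 2 h value. The 47 tested probe sets higher by such a gap had no such order: 2 h lay under 4 h in 25 of them, and 8 h above 6 h in 29. Values at 2 h are given beside each result, and differences without the 2 h array where they changed a reading.

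**Figure D2:**
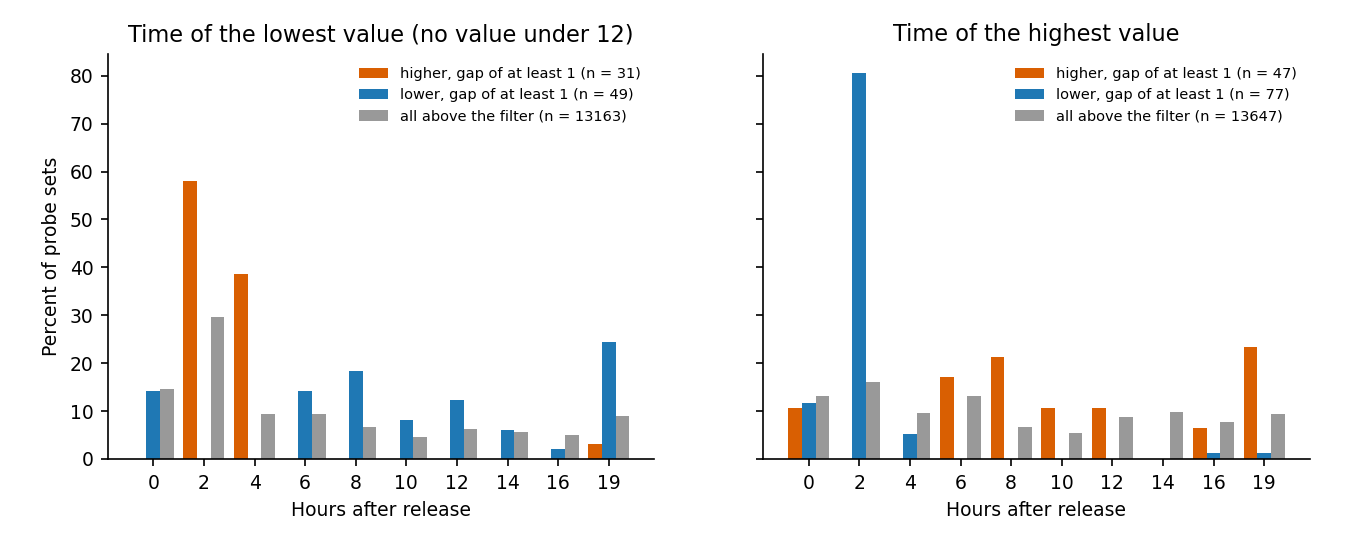
Percent of probe sets with their lowest (left) and highest (right) signal at each time after release. Shown are those higher by a gap of at least 1, those lower by such a gap, and all tested probe sets. In the right panel 80.5% of the lower group are at 2 h, as high earlier values are part of how it was chosen. The left panel holds only probe sets with no value under 12. There the higher group has its lowest signal at 2 h in 18 and at 4 h in 12 of 31 cases.

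At 0 h, straight after the wash, these transcripts did not all stand at their earlier level. The 0 h value lay within or above the later range in 23 of the 47 higher probe sets. It lay within or below the earlier range in 2. Over all 3522 tested probe sets separated higher, these counts were 1143 and 1730. In the 77 lower probe sets, the 0 h value lay within or below the later range in 32. It lay within or above the earlier range in 22. Over all 2149 tested probe sets separated lower, these counts were 786 and 981. Later in the course, the 10 h value was within or past the later range in 29 of the 47 and in 48 of the 77. All 3 of the last samples, from 14 h to 19 h, did so in 24 of the 47 and 31 of the 77. Over all tested probe sets separated higher, 10 h did so in 1917 of 3522 and the last 3 samples in 1200. For those separated lower, the counts were 1184 and 680 of 2149. The shares at 10 h were thus not particular to probe sets with a large gap.

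Regulators of cyclin-dependent kinases were among the named genes that passed the test. FBL17 is an F-box protein that marks KRP inhibitors of these kinases for degradation. Its signal was 544 at 2 h, 472 at 4 h, then 234 and 239.9 at 6 h and 8 h. Both later values were close to each other and well below both earlier ones. FBL17 fell by 1.097 on the log2 scale (SE 0.19, limma adjusted p = 0.0421), a 2.14-fold decrease. It stood at 480.02 at 0 h, within its earlier range, and at 369.97 at 19 h, between the levels of the windows. SIM, the SIAMESE inhibitor that takes part in the switch from division to endoreduplication in trichomes, ran the other way, with 87.9 and 111 at the earlier and 199 and 206 at the later times. SIM rose 2.04-fold, a difference of 1.03 (SE 0.17, limma adjusted p = 0.0415). Its highest signal of the course was 249 at 0 h, so the earlier times were a low stretch for this transcript.

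More of the tested genes of G2 and mitosis were higher than lower at the later times, chiefly at 8 h. Of 50 genes in the list, 14 had a named and tested probe set, 8 of them were separated higher, 2 lower, and none passed the adjusted test, while 7 had an unadjusted p under 0.05. Among all tested probe sets, 25.8% were separated higher, 15.7% lower, and 16.7% had a limma unadjusted p under 0.05. The list was chosen with earlier results of these data known, so its counts are a description. Its median difference was 0.87, against 0.086 over all tested probe sets, and stayed at 0.90 without the 2 h array. Measured from 4 h, the median was 0.40 at 6 h and 1.61 at 8 h. The mitotic transcripts thus differed within the later window, and limma counts such a step as spread.

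The kinases and chromosome proteins of the list included its largest difference, that of 3xHMG-box2. AUR1, an Aurora kinase of the spindle and cell plate, stood at 86.5 and 75.7 at the earlier and 128 and 322 at the later times. AUR3, the Aurora kinase of centromeres, stood at 76.5 at 2 h, 90.6 at 4 h, then 117 and 169 at 6 h and 8 h. Both genes were above both earlier values by 6 h and higher again at 8 h, with differences of 1.33 and 0.76 (limma adjusted p = 0.170 and 0.187). AUR2 was at 34.7 and 26.0 at the earlier and 33.7 and 54.4 at the later times, so its 6 h value lay between its earlier values. 3xHMG-box2, an HMG-box protein that binds mitotic chromosomes, was under 12 at the earlier and 16.1 and 165 at the later times. Nearly all of its difference of at least 2.103 came from the 8 h sample, and it was at 0.42 without that array (limma adjusted p = 0.262 with all arrays). 3xHMG-box1, its close relative, was 18.1 at 2 h, under 12 at 4 h, then 28.9 and 49.7 at 6 h and 8 h. TOPII, topoisomerase II, which untangles replicated DNA, was 127 and 43.0 at the earlier and 83.4 and 383 at the later times. For TOPII the windows overlapped, since its 2 h value exceeded its 6 h value, although the 8 h value was the highest of the 4.

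Genes of cell plate formation and of the spindle checkpoint also had their highest value of the 4 samples at 8 h. KINESIN-12B, a kinesin of the phragmoplast midzone, was under 12 at the earlier and 22.7 and 52.2 at the later times. Both earlier values were under the floor, so its difference of 1.52 is a lower bound (limma adjusted p = 0.188). AT4G14330, entered in the list as PAKRP2, was 15.2 at 2 h, under 12 at 4 h, then 20.4 and 39.3 at 6 h and 8 h. The checkpoint protein BUB3.1 was 61.0 and 76.5 at the earlier and 78.7 and 113 at the later times, a separation of 0.04 log2 units between 4 h and 6 h. Its partner BUBR1 was 18.0 and 14.7 at the earlier and under 12 and 56.8 at the later times, so the windows overlapped and 8 h alone stood high. UBC20, a ubiquitin-conjugating enzyme of mitotic protein degradation, was 109.8 at 2 h, 109 at 4 h, then 149.9 and 309.6 at 6 h and 8 h, and its relative UBC19 was 176 and 187 at the earlier and 176 and 229.5 at the later times. UBC20 was separated higher and UBC19 overlapped. HTR12, the centromeric histone H3, stood out in the other direction with 93.3 and 84.3 at the earlier and 63.8 and 56.6 at the later times, a difference of -0.56 (limma adjusted p = 0.322). ATMAP65-6, a microtubule-bundling protein, was the second member separated lower, with 78.9 at 2 h, 61.3 at 4 h, then 46.7 and 59.1 at 6 h and 8 h. Of these 14 genes, AUR1, AUR3, both 3xHMG-box genes, KINESIN-12B, AT4G14330, BUB3.1 and UBC20 were the 8 separated higher.

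**Figure D3:**
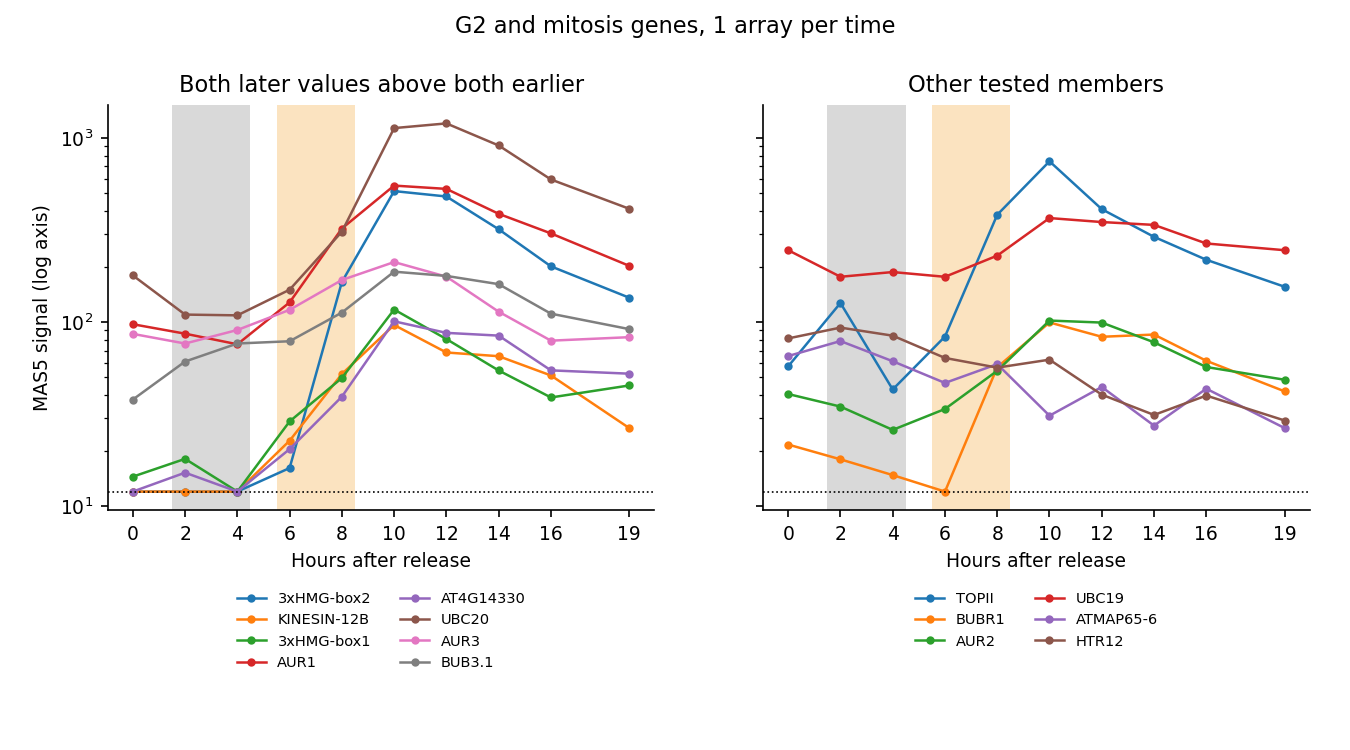
MAS5 signal on a log axis against hours after release for the 14 tested genes of G2 and mitosis, 1 array per time, with the floor of 12 dotted. The 8 genes with both later values above both earlier ones (left) climb between 6 h and 10 h, and the other 6 (right) include TOPII and BUBR1, which stand high from 8 h, and HTR12 and ATMAP65-6, which stand lower at 6 h and 8 h than at 2 h and 4 h.

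Apart from FBL17, which is also counted here, no replication gene passed the test. The list held 39 genes, of which 6 had a named and tested probe set: FBL17 fell, and of the other 5, none passed the test and 2 were separated lower. Among all tested probe sets, 15.7% were separated lower. ICU2, the catalytic subunit of DNA polymerase alpha, stood at 257 and 213 at the earlier and 200.1 and 181 at the later times, a difference of -0.29 (limma adjusted p = 0.362). SGA2, a histone chaperone of the ASF1 family, was 285 and 282 at the earlier and 243 and 239 at the later times. ASF1B, its paralog, was 181 at 2 h, 185 at 4 h, then 162 and 205 at 6 h and 8 h. SGA2 was separated lower by a small margin and ASF1B overlapped. PRL, a subunit of the MCM helicase that opens origins, was 368 and 507 at the earlier and 529 and 474 at the later times. AT5G26680, entered in the list as FEN1, was 128 and 142 at the earlier and 164 and 138 at the later times. Both overlapped. The median of the 6 was -0.12.

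Core histone transcripts were highest at 2 h, and their later values were nearer to those at 4 h. None of the 14 probe sets passed the test or reached an unadjusted p under 0.05, 5 were separated lower and none higher, and the median difference was -0.34. Among all tested probe sets, 15.7% were separated lower and 25.8% higher. Of the 14 histone probe sets, 13 had their highest signal of the course at 2 h. Without the 2 h array the median was -0.06, with 5 higher and 5 lower than 4 h at both later times. HTB2, a histone H2B, was 1615 at 2 h, 747 at 4 h, then 687 and 671 at 6 h and 8 h. HTB11, another H2B, was 665 and 259.8 at the earlier and 251 and 236 at the later times. HTB4 was 1190.3 and 615 at the earlier and 579 and 606 at the later times. In these 3 genes 2 h stood alone, and the 4 h value was near both later values. The 4 H2B genes differed by -0.77 to -0.25, and by -0.14 to -0.05 without 2 h. The 5 histone H4 probe sets, each shared by 8 genes, differed by -0.60 to -0.01, and the 5 of histone H3, each shared by 5 genes, by -0.66 to 0.05. The signal of these copies cannot be assigned to 1 gene. HON4, a linker-histone-like protein, was 489 at 2 h, 419 at 4 h, then 274 and 276 at 6 h and 8 h, with the later values near each other and a difference of -0.72 that missed the threshold (limma adjusted p = 0.0613).

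Of the DNA repair genes, 10 were tested, 2 were separated higher and 3 lower, and 1 passed. Over all tested probe sets, 25.8% were separated higher and 15.7% lower. UNG, the uracil-DNA glycosylase that starts base excision repair, was 57.9 and 60.4 at the earlier and 123 and 129 at the later times. Each pair of values was tight, and UNG rose 2.14-fold (SE of the log2 difference 0.15, limma adjusted p = 0.0195). It had stood at 138 at 0 h and was at 182 at 10 h. ATMND1, a partner of the meiotic recombinase machinery, was 374 and 241 at the earlier and 151 and 166 at the later times, with a difference of -0.93 (limma adjusted p = 0.0973). RECQI1, a RecQ helicase, was 63.5 at 2 h, 56.2 at 4 h, then 29.1 and 35.5 at 6 h and 8 h, and FANCM, a helicase that limits crossovers, was 166 and 148 at the earlier and 139.7 and 121 at the later times. RECQ4B, another RecQ helicase, was separated higher at 35.1 and 33.3 at the earlier and 41.1 and 47.0 at the later times. The median of the 10 was 0.03 and changed sign with scaling, to -0.11 with median centring.

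Beyond SIM and UNG, 3 genes with a symbol rose, and of the genes with a locus code only, 3 that rose are given here for their size. scpl50, a serine carboxypeptidase-like protein, was 19.2 at 2 h, 31.3 at 4 h, then 83.1 and 91.2 at 6 h and 8 h, a 3.55-fold rise (SE of the log2 difference 0.27, limma adjusted p = 0.0238). TBL36, of a family of wall polysaccharide O-acetyltransferases, was 325 and 274 at the earlier and 698 and 892 at the later times, a 2.64-fold rise (limma adjusted p = 0.0283). PR-1-LIKE, a relative of the defence protein PR-1, was 292 and 358 at the earlier and 688 and 797 at the later times, a 2.29-fold rise (limma adjusted p = 0.0420). For scpl50, TBL36 and PR-1-LIKE every later value was well above every earlier one, and the earlier times were also below 0 h: TBL36 stood at 751 and PR-1-LIKE at 1054 at 0 h, and at 1353 and 1185 at 19 h. AT3G61820, named by its locus code alone, was 87.0 at 2 h, 150.4 at 4 h, then 400.04 and 439.7 at 6 h and 8 h, a 3.67-fold rise (limma adjusted p = 0.0226), after 513 at 0 h. AT4G22120 was under 12 at the earlier and 50.4 and 59.1 at the later times and rose by at least 2.19 (limma adjusted p = 0.0226). AT5G14230 was under 12 at the earlier and 33.5 and 58.9 at the later times and rose by at least 1.89 (limma adjusted p = 0.0415). The last 2 were under the floor in both earlier samples, so their size depends on where the floor is set: with a floor of 25 the differences were 1.13 and 0.83 and neither passed (limma adjusted p = 0.134 to 0.198). A further 9 genes with a locus code only rose, by 1.00 to 1.66 on the log2 scale (limma adjusted p = 0.0145 to 0.0420). The lowest p of these was that of AT1G47670, named here after its values were seen, with 84.8 at 2 h, 99.5 at 4 h, then 301 and 279 at 6 h and 8 h.

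Other named genes had larger or similar differences that missed the threshold. PID2, a protein kinase related to PINOID, was under 12 and 14.6 at the earlier and 61.7 and 79.2 at the later times. PORB, a protochlorophyllide oxidoreductase, was 20.6 and 18.5 at the earlier and 68.0 and 63.9 at the later times. SCPL45, another carboxypeptidase-like protein, was 79.8 at 2 h, 33.8 at 4 h, then 153 and 189 at 6 h and 8 h. All 3 had a later pair far above the earlier pair, with differences of at least 2.40 for PID2, 1.75 for PORB and 1.71 for SCPL45 (limma adjusted p = 0.112, 0.103 and 0.0998). FDH, formate dehydrogenase, was 22.9 and 55.3 at the earlier and 88.1 and 112 at the later times. FZL, a dynamin-like protein of thylakoids, was 19.6 and 27.4 at the earlier and 50.5 and 73.3 at the later times. ZCF125 was 20.8 at 2 h, 20.9 at 4 h, then 40.03 and 109 at 6 h and 8 h. FZL and FDH had 6 h values above all earlier ones, and in ZCF125 the 8 h value was far above the 6 h value. ATLP-1, a thaumatin-like protein, was 24.6 and 20.21 at the earlier and 48.5 and 74.4 at the later times, and went on to 239 at 12 h. SETH6 was under 12 and 52.9 at the earlier and 95.2 and 73.9 at the later times, and ARLA1A, an Arf-like GTPase, was 25.6 at 2 h, 99.6 at 4 h, then 149.7 and 107 at 6 h and 8 h. For SETH6 and ARLA1A the 2 h value alone was low, and without it the differences were 0.67 and 0.35 in place of 1.74 and 1.33. AT2G38160 was under 12 and 17.3 at the earlier and 39.7 and 99.2 at the later times. AT5G66650 was 59.4 and 23.8 at the earlier and 143 and 198 at the later times. Their later values lay apart from the earlier ones, and neither passed (limma adjusted p = 0.0908 and 0.119).

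A pair of named chaperone genes fell at the later times. Hsp70-2, a cytosolic heat shock protein of the Hsp70 class, was 1132 at 2 h, 949 at 4 h, then 606 and 592 at 6 h and 8 h. Hop3, the co-chaperone that links Hsp70 and Hsp90, was 125 and 142 at the earlier and 69.6 and 61.6 at the later times. The gap between the windows was 0.65 log2 units for Hsp70-2 and 0.84 for Hop3. Hsp70-2 fell by 0.79 (SE 0.13, limma adjusted p = 0.0392) and Hop3 fell by 1.03 (SE 0.17, limma adjusted p = 0.0415). The Hsp70-2 signal had been 640.1 at 0 h, near its later values, and was 995 at 10 h, within its earlier range. That of Hop3 was 126 at 0 h, within its earlier range, and 88.3 at 10 h, below it.

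Of the other genes that fell, YLS5 and the largest changes among genes with a locus code only were high at 2 h. YLS5, a protein of the DJ-1 family first known from yellowing leaves, was 561 and 254 at the earlier and 81.4 and 64.1 at the later times, a 5.22-fold decrease (limma adjusted p = 0.0292). AT1G18980 was 550.2 at 2 h, 145 at 4 h, then 12.6 and under 12 at 6 h and 8 h, a fall of at least 23.0-fold (limma adjusted p = 0.0155). It was under 12 in 6 of the 10 samples, all those from 8 h on. Set to the floor, its values from 10 h on were equal and added no spread, so its p-value is too favourable. Its mean signal, on which the filter rests, came mostly from 2 h and 4 h. AT3G02910 was 934 and 683 at the earlier and 83.2 and 37.4 at the later times, a 14.3-fold fall (limma adjusted p = 0.0155). At 4 h all 3 were still well above their later values, and at 0 h YLS5 was at 59.8 and AT3G02910 at 40.5, near their later levels. AT1G02360 was 1139.7 and 95.8 at the earlier and under 12 and 18.3 at the later times. AT1G65690 was 1062 at 2 h, 160.2 at 4 h, then 50.7 and 31.0 at 6 h and 8 h. AT2G18690 was 461 and 44.2 at the earlier and under 12 and 17.2 at the later times. For the last 3 the 2 h value dwarfed the other 3 values, the spread between 2 h and 4 h was large, and none passed the test (limma adjusted p = 0.0689, 0.0709 and 0.126). A further 9 genes with a locus code only fell, with differences from -2.61 to -0.96 (limma adjusted p = 0.0155 to 0.0468), and 7 of them were highest at 2 h. Of the other 2, named after their values were seen, AT5G48570 was 903 and 909.7 at the earlier and 459 and 474 at the later times, and AT5G13200 was 241 at 2 h, 161 at 4 h, then 67.1 and 80.2 at 6 h and 8 h after 322 at 0 h.

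**Figure D4:**
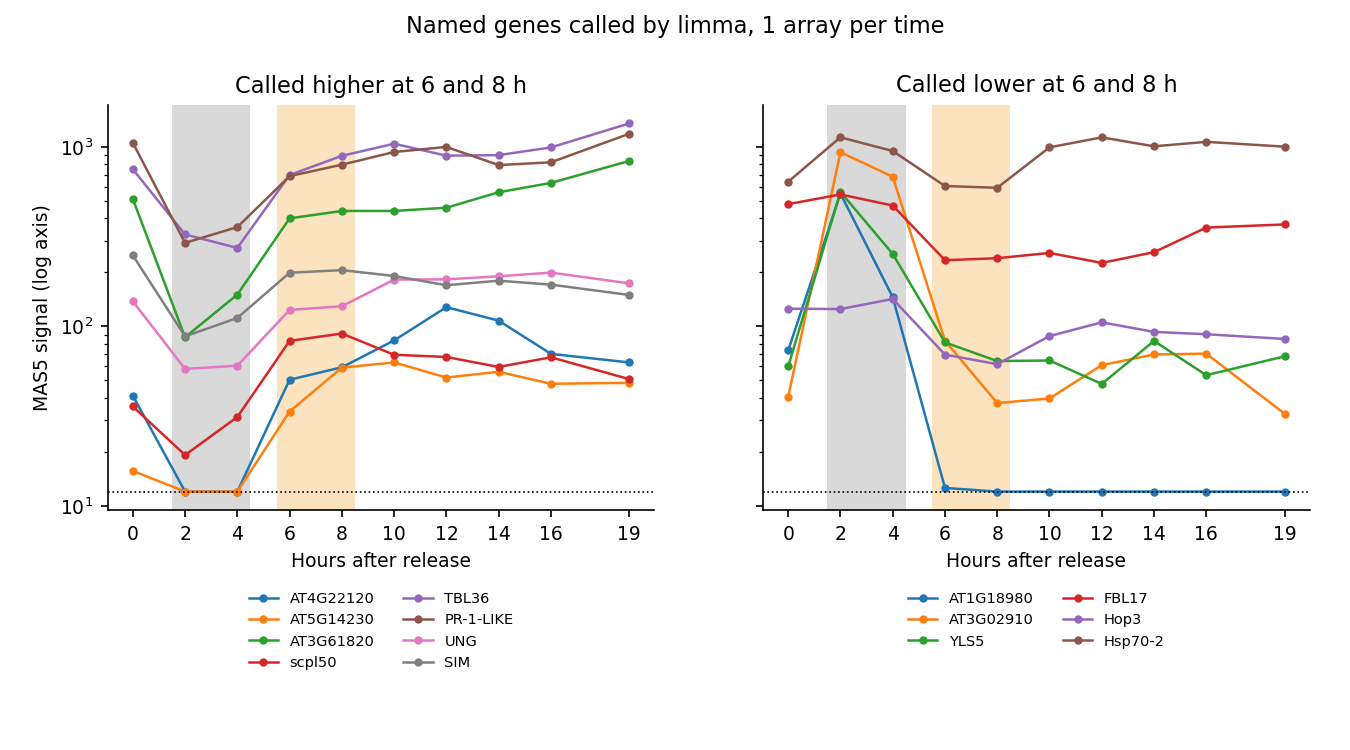
MAS5 signal on a log axis against hours after release for the 14 named genes called by limma, 1 array per time, with values under 12 drawn at the dotted floor. The 8 genes called higher (left) dip at 2 h and 4 h and stand higher at 6 h and 8 h; of the 6 called lower (right), FBL17, Hsp70-2 and Hop3 step down between 4 h and 6 h, and YLS5, AT1G18980 and AT3G02910 come down from 2 h.

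These 14 calls depended on single arrays and on processing choices. All 14 were lost without the 8 h array (limma adjusted p = 0.0929 to 0.219), with the 4 arrays alone (0.317 to 0.559) and with 0 h joined to the earlier times (0.0634 to 0.505). Leaving out 12 h or 16 h lost 12 (0.0506 to 0.108), 6 h or 10 h 11 (0.0603 to 0.136), 14 h 7 (0.0558 to 0.0926), 19 h 6 (0.0694 to 0.0822) and 2 h 5 (0.0550 to 0.0883). Leaving out 0 h lost none. Without 4 h the earlier window was the 2 h array alone, and the spread between 2 h and 4 h left the fit. That setting therefore cannot show that a call is stable. Of the processing choices, no filter on signal lost 13 and kept UNG (0.0895 to 0.193), no mean trend lost 8 (0.0595 to 0.106), median centring lost FBL17, Hsp70-2, PR-1-LIKE, SIM and TBL36 (0.0513 to 0.126), quantile normalization FBL17 and AT5G14230 (0.0515 to 0.0556) and a floor of 25 AT4G22120 and AT5G14230 (0.134 to 0.198). None of the 14 changed direction in any setting run. FBL17 was called in 7 of 20 alternatives: it was lost without 2 h, 6 h, 8 h, 10 h, 12 h, 16 h or 19 h, with the 4 arrays alone, with 0 h joined, under both other scalings, without a filter and without a mean trend, with limma adjusted p from 0.00335 to 0.415 over all its alternatives and differences from -1.24 to -0.99. With 0 h joined to the earlier times, differences were 0.59 for SIM, 0.69 for UNG, 0.63 for PR-1-LIKE, 1.15 for AT3G61820, -1.50 for YLS5 and -2.41 for AT3G02910.

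Many of the named genes with the largest lower differences rested on 2 h. HCT, a transferase of lignin precursor synthesis, was 2119 and 477 at the earlier and 330.3 and 273 at the later times. CCR2, a cinnamoyl-CoA reductase of the same pathway, was 722 and 26.6 at the earlier and 14.6 and 21.4 at the later times. BGLU46, a glucosidase active on lignin precursors, was 152 at 2 h, 32.2 at 4 h, then 31.5 and 24.2 at 6 h and 8 h. For all 3 genes 2 h was the highest value of the course, and 4 h was within 2-fold of at least 1 later value. Without the 2 h array the differences were -0.67 for HCT, -0.59 for CCR2 and -0.22 for BGLU46, in place of -1.74, -2.97 and -1.34 (limma adjusted p = 0.168, 0.251 and 0.316 with all arrays). Of the cytochrome P450 genes, 3 of 23 were tested, and 2 were separated lower, against 15.7% of all tested probe sets. CYP71B6 was 400.2 and 188 at the earlier and 95.8 and 103 at the later times, a difference of -1.46. CYP71B5 was 266 and 30.2 at the earlier and under 12 at the later times, a difference of -2.90 that is a bound, and neither passed the test (limma adjusted p = 0.0990 and 0.145). Without the 2 h array they were -0.92 and -1.33. CYP51G2, of the sterol pathway family, overlapped at 27.0 at 2 h, 24.3 at 4 h, then 30.2 and 20.7 at 6 h and 8 h. BGLU27, a glucosidase, was 565 and 33.6 at the earlier and 23.3 and under 12 at the later times. GTR2, a glucosinolate transporter, was 370.4 and 118 at the earlier and 40.7 and 64.5 at the later times. Without the 2 h array these last 2 differed by -1.01 and -1.20, in place of -3.04 and -2.03.

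The rest of the 15 largest lower differences among named genes also missed the threshold. CHI, a chitinase, was 807 at 2 h, 565 at 4 h, then 412 and 203 at 6 h and 8 h, with an 8 h value at about the 0 h level of 196. BIK1, a kinase downstream of immune receptors, was 989 and 303 at the earlier and 243 and 233 at the later times. WRKY6, a transcription factor of stress and phosphate responses, was 506 and 200.004 at the earlier and 138 and 141 at the later times. Limma adjusted p was 0.207, 0.210 and 0.188, and without the 2 h array the differences were -0.97, -0.35 and -0.52 in place of -1.22, -1.20 and -1.19. WRKY53, a transcription factor of senescence and defence, was 67.4 at 2 h, 46.6 at 4 h, then 24.4 and 19.6 at 6 h and 8 h. Its highest value was 133 at 0 h, and each of the next 4 samples was lower than the one before. ZCF37 was also highest at 0 h, at 597, and then stood at 106 and 42.7 at the earlier and under 12 and 31.7 at the later times. GRXC1, a glutaredoxin, was 135 and 116 at the earlier and 21.6 and 74.8 at the later times, low at 6 h above all, and MT1C, a metallothionein, was 143 at 2 h, 51.6 at 4 h, then 34.0 and 36.6 at 6 h and 8 h. Of the 7 tested genes picked as defence proteins, 3 were separated higher and 2 lower, 1 (PR-1-LIKE) passed the test and 4 had an unadjusted p under 0.05, with a median of 0.54. The shares over all tested probe sets were 25.8% higher, 15.7% lower and 16.7% at a limma unadjusted p under 0.05. The defence list was made from symbols and its members differ in kind: PDF1A and PDF1B, which it caught, are peptide deformylases, while PDF1.4 and PDF2.1 are plant defensins. PDF1B was separated higher at 46.3 and 64.2 at the earlier and 101 and 119 at the later times (limma adjusted p = 0.0789), and PDF2.1 was 378 and 259 at the earlier and 278 and 748 at the later times, high at 8 h alone.

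Among photosynthesis genes encoded in the nucleus, more were higher than lower at the later times in these dark-grown cells. Of 8 tested, 4 were separated higher and none lower, none passed the adjusted test and 4 had an unadjusted p under 0.05. The shares over all tested probe sets were 25.8% higher, 15.7% lower and 16.7% at a limma unadjusted p under 0.05. The median of the 8 was 0.65. Without the 2 h array it was 0.21, with 4 higher and 2 lower than 4 h at both later times. RCA, Rubisco activase, was 105 at 2 h, 172 at 4 h, then 257 and 297 at 6 h and 8 h, a difference of 1.04 (limma adjusted p = 0.0782). PSBW, a photosystem II subunit, was 76.9 and 113 at the earlier and 136 and 149 at the later times. PSBY, another one, was 120.2 and 184 at the earlier and 214 and 204 at the later times. Most of the difference in PSBW and PSBY lay between 2 h and 4 h, and that of PORB between 4 h and 6 h. LHCB4.1, a light-harvesting protein, overlapped at 49.3 at 2 h, 90.1 at 4 h, then 87.9 and 129 at 6 h and 8 h. PSAE-1, a photosystem I subunit, also overlapped, at under 12 and 32.1 at the earlier and 31.0 and 41.1 at the later times. The 5 markers of leaf-like cells that had a probe set, all within this group, summed to a signal of 297 and 497 at the earlier times and 658 and 736 at the later ones. Of these 5, 1 was under the floor at 2 h and none at the other 3 times, and their part in any other result was not tested.

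Transcripts of the plastid genome, the plastid's own DNA, differed less. Of 68 tested, 21 were separated higher and 7 lower, none passed and 6 had an unadjusted p under 0.05, with a median of 0.18. Over all tested probe sets, 25.8% were separated higher, 15.7% lower, and 16.7% had a limma unadjusted p under 0.05. With median centring, 13 were higher and 14 lower and the median was 0.04. The rpl33 transcript for a plastid ribosomal protein was 245 and 214 at the earlier and 415 and 370.1 at the later times. The psaA transcript for a photosystem I core protein was 59.8 at 2 h, 70.9 at 4 h, then 128 and 79.3 at 6 h and 8 h. The psbI transcript for a small photosystem II subunit was 189.5 and 232 at the earlier and 109 and 152 at the later times. The first of these was separated higher at both later times, psaA chiefly at 6 h, and psbI was the largest lower difference of the group at -0.70 (limma adjusted p = 0.360).

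Autophagy genes, which build the vesicles that carry cell contents to the vacuole, leaned lower. Of 10 tested, 6 were separated lower and 1 higher, none passed the adjusted test and 4 had an unadjusted p under 0.05, with a median of -0.28 and of -0.17 without the 2 h array. The shares over all tested probe sets were 15.7% lower, 25.8% higher and 16.7% at a limma unadjusted p under 0.05. Of the 10 differences, 2 were above 0, and 4 without the 2 h array. ATG8F, one of the ubiquitin-like proteins of the vesicle membrane, was 306 and 330.4 at the earlier and 202 and 256 at the later times. APG8H, another, was 562 at 2 h, 609.7 at 4 h, then 444 and 459.8 at 6 h and 8 h. ATG3, the enzyme that attaches ATG8 to lipid, was 237 and 205 at the earlier and 175 and 175 at the later times. Each was lower at both later times by less than 0.5 log2 units on average, at -0.49, -0.37 and -0.33 (limma adjusted p = 0.208, 0.186 and 0.291). ATG8E was 454 and 196 at the earlier and 218 and 327 at the later times, high at 2 h and low at 4 h, and ATG8G was the 1 member separated higher, at 191 at 2 h, 225 at 4 h, then 235 and 236 at 6 h and 8 h.

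Among genes of wall loosening, 10 of 27 were tested, 3 were separated higher and none lower, 2 had an unadjusted p under 0.05, and the median was 0.27. These counts were near the shares over all tested probe sets, 25.8% separated higher and 16.7% at a limma unadjusted p under 0.05. With median centring, 2 were separated higher and 1 lower. EXPB3, a beta-expansin, was 58.7 and 71.4 at the earlier and 140.3 and 114 at the later times. XTH19, a xyloglucan endotransglucosylase, was under 12 and 12.001 at the earlier and 26.2 and 28.1 at the later times. EXPA15, an alpha-expansin, was 46.0 at 2 h, 64.6 at 4 h, then 69.6 and 73.8 at 6 h and 8 h. All 3 had stood above both later values at 0 h, XTH19 at 147, EXPB3 at 148 and EXPA15 at 88.7, and at 19 h they were at 86.2, 398 and 242. None passed the test (limma adjusted p = 0.0869 for XTH19, 0.194 for EXPB3 and 0.467 for EXPA15). EXPA4, another alpha-expansin, overlapped at 1964 and 702 at the earlier and 897 and 985 at the later times.

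Tubulins and common reference genes were also followed. Of 7 tubulin genes, 4 were separated higher and none lower, with a median of 0.22, none passed, and none were separated with median centring. The shares over all tested probe sets were 25.8% higher and 15.7% lower. TUB7, a beta-tubulin, was 295 and 530.2 at the earlier and 575 and 645 at the later times, the largest difference at 0.62 (limma adjusted p = 0.258). TUA1, an alpha-tubulin, was 184 at 2 h, 188 at 4 h, then 170.5 and 201 at 6 h and 8 h. Of 8 reference genes, 3 had a probe set. GAPC2, the glycolytic glyceraldehyde-3-phosphate dehydrogenase, was 2180.1 and 2059 at the earlier and 2079 and 2427 at the later times. AT4G34270 was 143 and 159 at the earlier and 164 and 138 at the later times. AT2G28390, also called MON1, was 144 at 2 h, 129 at 4 h, then 114 and 100.1 at 6 h and 8 h. The difference was 0.08 for GAPC2 and -0.35 for AT2G28390, and none of the 3 passed the test.

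**Figure D5:**
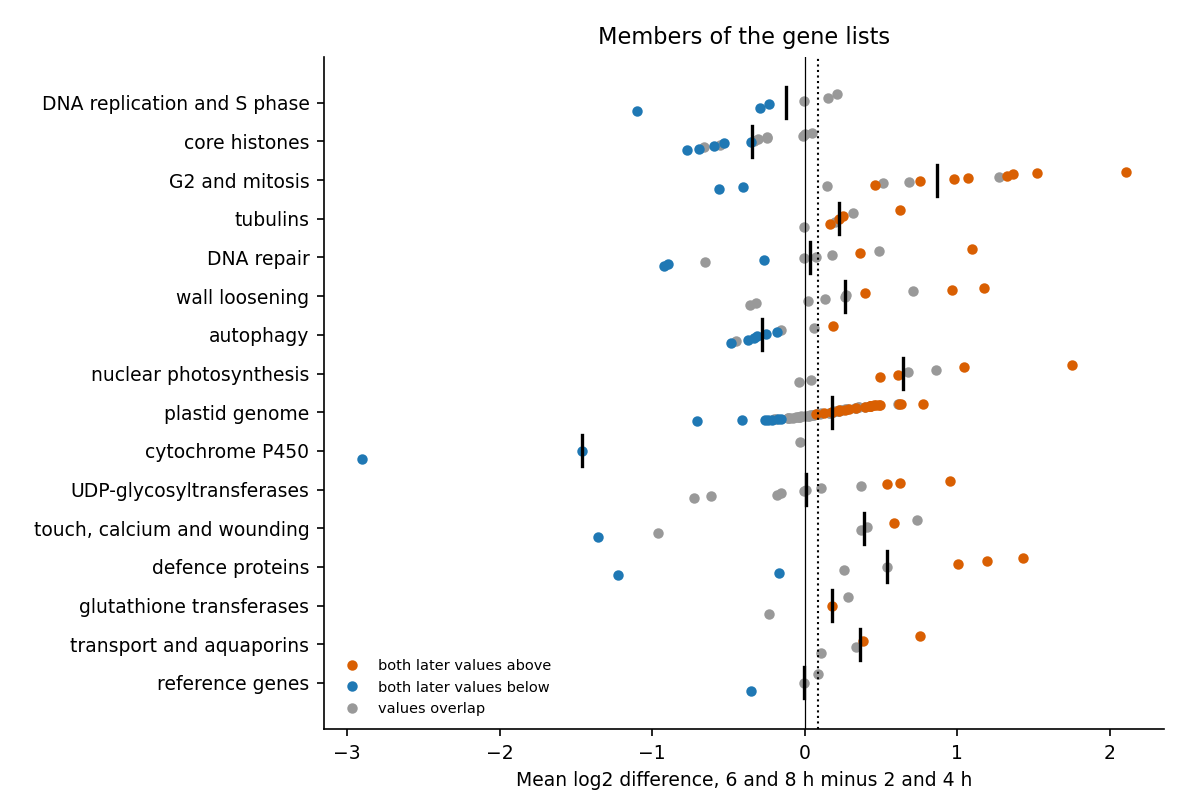
Mean log2 difference between 6 and 8 h and 2 and 4 h for each tested member of the gene lists, 1 point per probe set, with colour showing whether both later values lay above, both below, or overlapped with the earlier ones, and a line for each list's median. The genes of G2 and mitosis and of nuclear photosynthesis lie mostly right of 0, with medians of 0.87 and 0.65, and the core histones and autophagy genes mostly left, with medians of -0.34 and -0.28.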

How the data were processed

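Total RNA of 10 samples was labelled with biotin and hybridised to 10 arrays, per the labels. The deposited values are MAS5 intensity values on a linear scale, computed by the authors from probe pairs within each array, per the submitters' processing notes, with no version given in the sources used here. The median signal per array was 35.0 to 43.6, and 23.1% to 26.9% of probe sets were under 12; 1 array per time limits the precision. Of 22810 probe sets, 64 controls were left out. Of the 22746 kept, 13513 named 1 gene, 503 several and 8730 none in the platform annotation, and 13436 were matched by gene ID to RefSeq names (TAIR10.1). Many cell cycle genes and all mitochondrial genes had no probe set named in these tables and were not analysed here. Promoter sequences were not analysed here.

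Signals under 12 were set to 12 and log2 was taken. With R 4.3.3 and limma 3.58.1, 5 windows (0 h, 2 and 4 h, 6 and 8 h, 10 and 12 h, 14 to 19 h) were fitted over all 10 arrays, leaving 5 residual degrees of freedom, with eBayes, a mean trend and Benjamini-Hochberg adjustment. Tested were the 13647 probe sets with a mean signal above the 40th percentile (26.6). The fit was also run on data simulated with independent noise and no change within a window. That run cannot show how real change within a window affects the calls. SE is that of the contrast. Named genes were the 15 largest mean differences each way among separated, tested probe sets with a symbol, all such genes called (the 5 of lowest p where fewer were called), and the 5 largest differences each way among genes with a locus code only and a gap of at least 1; members of the gene lists could be named too. Members, rules and lists were chosen with earlier results of these data known. Alternatives were other scalings, floors, filters, moderation, windows and each array left out.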

Additional observations from a re-analysis of the deposited data

How the results depend on the processing

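Counts are given as higher and lower. The limma calls, 34 and 45, were 17 with median centring against 34, with 56 lower; 17 and 15 without a filter on signal, 11 and 14 without a mean trend, 0 and 0 with the 4 arrays alone (957 at an unadjusted p under 0.05), and 0 and 7 with 0 h joined to 2 h and 4 h. Leaving out 1 array gave 0 to 1869 higher and 0 to 1264 lower. The highest counts came without 4 h and the lowest without 8 h, where 1669 had an unadjusted p under 0.05; without 2 h they were 52 and 45, without 6 h 27 and 25, 10 h 10 and 13, 12 h 4 and 8, 14 h 18 and 21, 16 h 2 and 11, and 19 h 22 and 22. Of the 79 calls, 58 were shared with quantile normalization, 57 with median centring, 15 without a filter and 54 without 2 h. The remaining settings, quantile normalization, no floor, a floor of 25, a stricter filter, robust moderation and leaving out 0 h, stayed within 1.5 times on both sides. Separated probe sets, 4423 and 2577, were 2706 and 3974 with median centring, and 6223 to 8494 and 4396 to 5482 with 1 of the 4 arrays left out, where fewer values must lie apart. Those with a gap of at least 1, 62 and 86, were 34 and 51 with log2(signal + 12), 35 higher with a floor of 25, and 161 to 782 and 144 to 877 with 1 array left out. None of the 47 named genes changed direction. Medians of the gene lists under other scalings or without the 2 h or 4 h array were chosen after seeing the data. No paired analysis was possible because each time had 1 sample. Signals near the floor limit what can be said of weak transcripts.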

Other observations

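The remaining gene lists held few tested members and no call. Their counts are read against the 25.8% separated higher and 15.7% lower over all tested probe sets. Of 11 tested UDP-glycosyltransferases (of 47 on the array), enzymes that attach sugars to small molecules, 3 were separated higher and none lower, with a median of 0.01 whose sign changed with scaling (-0.13 with median centring). UGT88A1 was 65.6 and 77.6 at the earlier and 133 and 143 at the later times, a difference of 0.95 (limma adjusted p = 0.0629), and UGT87A2 was 395 and 192 at the earlier and 210.1 and 132 at the later times, with the windows overlapping. Of 6 tested genes of touch, calcium and wounding responses, 1 was separated higher and 1 lower, with a median of 0.39 that was -0.15 without the 4 h array. CML42, a calmodulin-like protein, was 198 at 2 h, 54.1 at 4 h, then 63.8 and 44.4 at 6 h and 8 h, and the zinc-finger factor STZ was 87.4 and 42.2 at the earlier and 96.2 and 67.6 at the later times; both overlapped, and STZ had stood at 575 at 0 h.

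Of 3 tested glutathione transferases (of 13), GSTL3 was separated higher at 349 and 312 at the earlier and 390.3 and 358 at the later times, and the median of 0.18 was -0.43 without the 2 h array. Of 4 tested genes of transport (of 15), 2 were separated higher and none lower. SWEET9, a sugar transporter, was 20.7 at 2 h, 21.1 at 4 h, then 41.4 and 29.9 at 6 h and 8 h, and NRT2.5, a nitrate transporter, was 24.1 and 21.6 at the earlier and 33.4 and 26.5 at the later times. Markers of xylem-like and of seed storage cells had no probe set named in the tables used and were not analysed here.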
